A study of Homo sapiens with 10 samples.

Results

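RAB GTPases are small membrane-bound switches that direct vesicle traffic. An exchange factor (GEF) loads a RAB with GTP on a given membrane, the GTP-bound form recruits effectors such as motors and tethers, and a GTPase-activating protein (GAP) ends the cycle. The C-terminus of most RABs carries geranylgeranyl lipids, added by a RAB prenyl transferase with the help of an escort protein, and GDI proteins extract the inactive form from membranes. In epithelial cells these switches route secreted matrix and surface receptors, and they feed the endosomes and lysosomes that degrade them.

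The RAB genes described here are the rows of the count table whose symbol is RAB followed by a number and at most 1 letter, or by a number, L and an optional digit. Within the family the rule reads symbols only and gave 50 genes of 12540 in the table, but the family itself was picked with earlier results of these data known. The cells were SRA01-04, a permanent human line grown out of lens epithelium with large T antigen of a virus, so the data describe 1 line and not lens tissue. In 5 libraries, OE1 to OE5, messenger RNA came from cells transfected with a plasmid for RORα (a nuclear receptor, gene RORA), and in the other 5, EV1 to EV5, from cells given the empty plasmid. Both groups were given 10 µM selenite, an oxidising selenium salt used to cause cataract in rodents, for 24 h from 48 h after transfection, and no group lacked selenite or transfection. The comparison asks which transcripts differ with RORα overexpression in selenite-treated lens cells. Whether the replicates came from separate cultures is not in the labels, so p-values measure only the spread between these libraries.

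RORA itself stood at 41.7, 42.5, 39.4, 44.0 and 38.6 CPM (counts scaled to a common library total) in OE1 to OE5, against 16.4, 14.8, 17, 11.2 and 15.5 CPM in EV1 to EV5. The gene count does not separate plasmid from chromosomal transcripts. Library totals ran from 17475342 to 21956761 counts. Of 16 lens markers, 6 were measured. Among them PAX6 stood at 20.9 and GJA1 at 55.8 CPM in the overexpression group, against 19.6 and 53.2 CPM with the empty vector. The other 10, CRYAA and FOXE3 among them, had no row in the count table used here. None of the 6 rose, and CRYAB, a small heat shock crystallin, and BFSP1, a lens filament protein, fell by 1.95 and 0.65 on the log2 scale. All 8 fibroblast markers measured, of 10 listed, fell, with a summed level of 1032 to 1156 CPM in overexpression and 3098 to 3332 CPM in empty vector libraries. The 1 endothelial marker measured of 7, PECAM1, also fell (2.87 to 3.25 CPM in overexpression and 5.30 to 6.90 CPM in empty vector libraries). The part of these shifts in any result below was not tested. In bulk RNA, fewer cells of a type and less RNA per cell cannot be told apart.

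Several promoters of the family carry the half-site AGGTCA, which RORα binds, and they are shown because RORα was the factor overexpressed. RefSeq promoter windows (250 bases before to 50 after the annotated start, GRCh38.p14) matched 40 of the 50 genes. On either strand AGGTCA occurred in 4 of these 40 (10.0%), against 13.939% of 27305 promoters of the same length. The full RORE, the half-site with its A/T-rich 5′ flank, occurred in 1 of the 40 (2.5%) and in 0.289% of all promoters. The 4 stretches read 5′ to 3′ on the strand of their gene, with the match in capitals; in RAB24 and RAB29 it lies on the opposite strand and reads TGACCT, and in RAB40A the capitals cover the whole RORE, which contains the half-site.
RAB40A, chrX:103519592-103519662, minus strand: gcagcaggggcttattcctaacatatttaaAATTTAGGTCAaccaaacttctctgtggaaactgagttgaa
RAB29, chr1:205775623-205775688, minus strand: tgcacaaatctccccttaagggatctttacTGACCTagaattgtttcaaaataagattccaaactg
RAB24, chr5:177303710-177303775, minus strand: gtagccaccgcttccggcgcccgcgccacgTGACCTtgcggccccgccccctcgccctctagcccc
RAB22A, chr20:58309680-58309745, plus strand: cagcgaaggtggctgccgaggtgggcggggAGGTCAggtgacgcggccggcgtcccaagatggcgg

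The values of these 4 genes did not share a direction. RAB40A, the gene with the full RORE, had 2.54 ± 0.644 CPM with overexpression and 2.14 ± 0.524 CPM with the empty vector (SD, n = 5 each), with a log2 fold change of 0.24 and a 95% interval of -0.16 to 0.64 (edgeR adjusted p = 0.33). RAB29 and RAB24 rose, and RAB22A fell, as given with their routes below. Of the other motifs searched on both strands, the E-box CACGTG was in 6 of 40 promoters (15%, against 7.435% of all), the NF-kB consensus in 3 (7.5%, against 10.833%) and the ATF4-type sequence TGATGNAA in 1 (2.5%, against 3.673%). In RAB24 the E-box overlaps the half-site. A match is a run of letters in this window and was not tested for binding.

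Of the 50 RAB genes, all of which passed the filter on low counts, 15 rose, 11 fell and 24 did not pass the threshold (edgeR quasi-likelihood test, Benjamini-Hochberg adjusted p under 0.05). The called share was 52.0%, while 56.1% of the 12520 genes tested were called, 28.6% of those tested higher and 27.5% lower. Groups did not overlap for 18 RAB genes, 11 higher and 7 lower, where 39.6% of all genes had groups apart (20.8% higher, 18.9% lower). The median log2 fold change was 0.01 over the RAB genes and 0.00 over all genes, and the median size without sign was 0.18 in both. At least 1.5-fold was reached by 7 called RAB genes, against 12.3% of all genes, and 2-fold by 4, against 5.02% of all genes. The 4 at 2-fold were RAB39B, RAB38, RAB27B and RAB42, all higher. In these counts and sizes the family stood near the whole table.

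**Figure D1:**
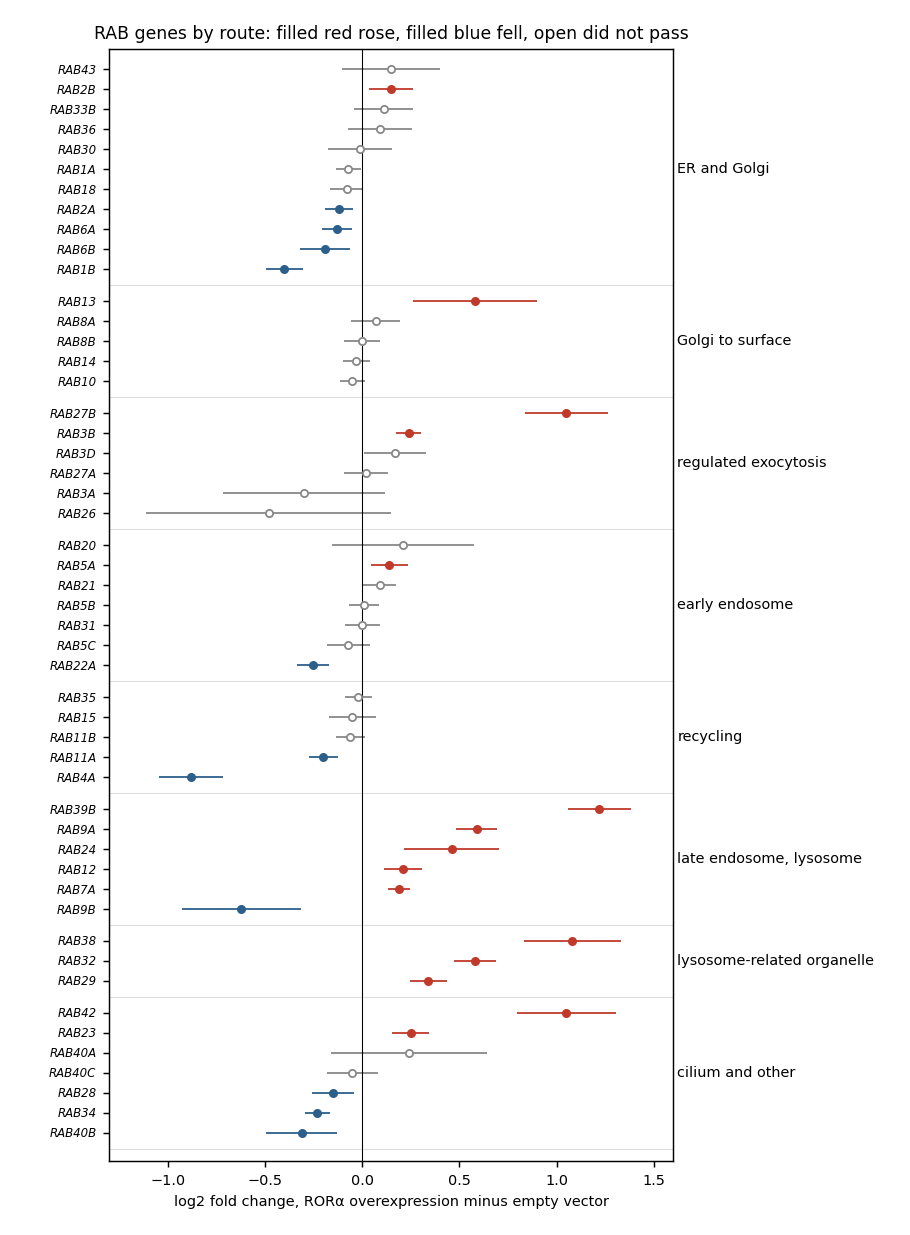
Log2 fold change of each RAB gene (RORα overexpression minus empty vector, x axis) with a 95% interval, grouped by route down the y axis; filled red points rose, filled blue points fell and open points did not pass. RAB39B (1.22) stands highest and RAB4A (-0.88) lowest, and the late endosome and lysosome-related groups hold no open point.

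By route, RAB genes of late endosomes, lysosomes and lysosome-related organelles were called without exception, 8 of 9 higher, where 56.1% of all genes were called and 28.6% were higher. Genes were placed in routes with earlier results of these data known, so these counts are a description. Of 11 ER to Golgi genes 1 rose and 4 fell, and of 5 recycling genes none rose and 2 fell. Of 5 genes from Golgi to surface 1 rose, of 6 in regulated exocytosis 2 rose, of 7 in early endosomes 1 rose and 1 fell, and of 7 ciliary or other genes 2 rose and 3 fell. Median log2 fold changes were 0.34 in late endosomes and lysosomes, 0.58 in lysosome-related organelles, 0.09 in regulated exocytosis, -0.06 in recycling and -0.07 between ER and Golgi, against 0.00 over all genes. Each gene was placed in 1 route from its best known role, although several act in more than 1. The count without exception rests on this placing. RAB29, which also acts at the Golgi, is counted in it. RAB27A, which also acts on multivesicular endosomes and did not pass (log2 fold change 0.02), is not. Summed per kilobase of exon, so that genes of different length can be added, the 6 late endosome and lysosome genes came to 178 ± 0.748 CPM per kilobase with overexpression and 149 ± 4.53 with the empty vector (SD, n = 5 each). The 3 genes of lysosome-related organelles summed to 59.5 ± 2.78 CPM per kilobase with overexpression and 40.7 ± 0.903 with the empty vector. Over all 50 genes the sum was 818 ± 2.09 with overexpression and 804 ± 9.18 CPM per kilobase with the empty vector. As a share of that sum, late endosome and lysosome genes made up 21.8% with overexpression and 18.6% with the empty vector, and ER to Golgi genes 20.9% with overexpression and 23.4% with the empty vector. These sums are descriptions, since each is carried by a few abundant genes: RAB7A alone stood at 125 CPM per kilobase with overexpression and 110 with the empty vector.

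**Figure D2:**
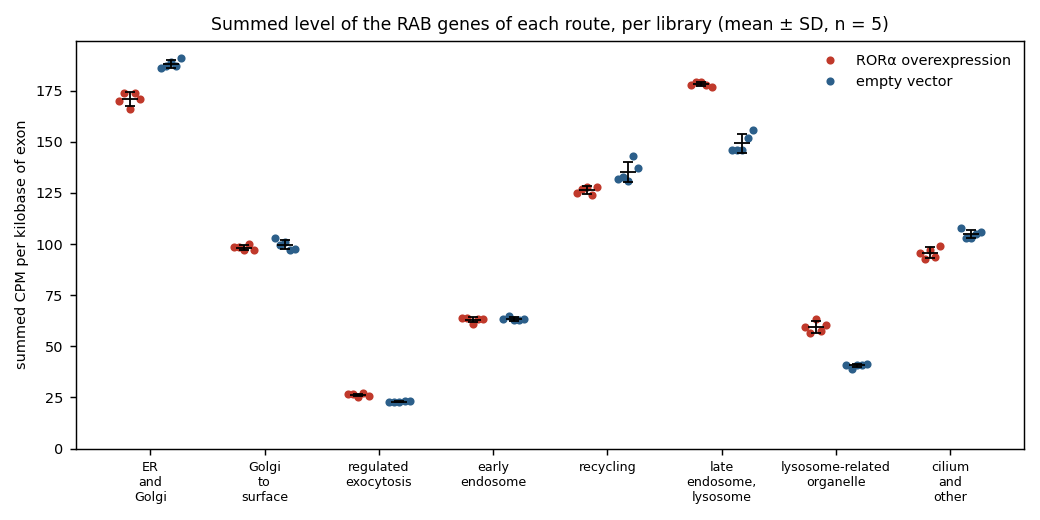
Summed CPM per kilobase of exon (y axis) of the RAB genes of each route (x axis) in every library, with overexpression libraries in red, empty vector libraries in blue and bars for mean ± SD, n = 5. Late endosome genes (177 to 179 with overexpression, 146 to 156 with the empty vector) lie higher with overexpression. So do lysosome-related genes (56.5 to 63.5 with overexpression, 39.1 to 41.4 with the empty vector). Regulated exocytosis genes (25.3 to 27.0 with overexpression, 22.6 to 23.1 with the empty vector) also lie higher. ER and Golgi genes (166 to 174 with overexpression, 186 to 191 with the empty vector) lie lower. Recycling genes (124 to 128 with overexpression, 131 to 143 with the empty vector) also lie lower. So do ciliary or other genes (92.6 to 99.1 with overexpression, 103 to 108 with the empty vector). Early endosome and Golgi to surface groups overlap.

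Among late endosome and lysosome genes, RAB39B had the largest rise of the family. RAB39B, mutated in X-linked intellectual disability with parkinsonism, lies on chromosome X, 155258241 to 155264589, minus strand (GRCh38, GENCODE 29, as for all positions below). Its level was 20.4, 18.1, 18.5, 19.6 and 18.8 CPM in OE1 to OE5, against 8.26, 8.42, 8.30, 6.97 and 8.89 CPM in EV1 to EV5. The groups were far apart: the lowest overexpression library was about as far above the highest empty vector library as that one was above 0. The fold change was 2.33 (log2 1.22, standard error 0.082, edgeR adjusted p = 4.49e-16). None of its 50-base words occurs in a transcript of another gene.

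RAB9A, which returns mannose 6-phosphate receptors from late endosomes to the Golgi, and its relative RAB9B, both on chromosome X, moved in opposite directions. RAB9A (13689125 to 13710506, plus strand) had 45.1, 43.7, 45.7, 45.1 and 41.5 CPM in OE1 to OE5, against 27.3, 27.5, 30.4, 30.6 and 31.1 CPM in EV1 to EV5. That rise of 1.50-fold (log2 0.59, standard error 0.054, edgeR adjusted p = 4.60e-12) left the groups clearly apart. RAB9B (103822322 to 103832228, minus strand) had 2.78, 3.20, 2.84, 2.57 and 2.89 CPM in OE1 to OE5, against 4.07, 5.53, 5.16, 3.89 and 3.37 CPM in EV1 to EV5. It fell by 0.62 on the log2 scale (standard error 0.157, edgeR adjusted p = 0.000888), and the highest overexpression library lay just under EV5. Per kilobase, RAB9A exceeded RAB9B 24.1 to 31.1 times in overexpression libraries and 8.80 to 16.3 times in empty vector libraries, so RAB9A supplied most of the pair's RNA in both groups.

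The remaining late endosome genes rose less. RAB7A, the central switch of fusion with lysosomes and the most abundant RAB per kilobase, had 335 to 341 CPM with overexpression and 291 to 306 CPM with the empty vector, a log2 fold change of 0.19 (edgeR adjusted p = 5.61e-07) with groups apart. RAB12, which sends transferrin receptor to degradation, had a log2 fold change of 0.21 (56.6 ± 1.12 CPM with overexpression against 48.8 ± 4.40 CPM with the empty vector, edgeR adjusted p = 0.000486) with overlapping groups. RAB24, linked to autophagy, rose by 0.46 (6.76 ± 0.727 CPM with overexpression against 4.93 ± 0.821 CPM with the empty vector, edgeR adjusted p = 0.00193). Exons of RAB24 overlap those of MXD3 on the same strand over 44.843% of their length. MXD3, named only for this overlap, fell by 0.27 on the log2 scale.

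RAB32 and RAB38 deliver enzymes to melanosomes in pigment cells and act on other lysosome-related organelles elsewhere. RAB38 (chromosome 11, 88113242 to 88175467, minus strand) stood at 9.12, 6.59, 8.70, 6.85 and 8.73 CPM in OE1 to OE5, against 3.04, 3.99, 3.98, 3.72 and 4.14 CPM in EV1 to EV5. All overexpression values were above all empty vector values (2.12-fold, log2 1.08, standard error 0.127, edgeR adjusted p = 2.13e-09). RAB32 (chromosome 6, 146543693 to 146554965, plus strand) stood at 45.2, 44.1, 49.0, 44.0 and 46.5 CPM in OE1 to OE5, against 30.5, 27.7, 29.9, 32.3 and 32.5 CPM in EV1 to EV5. It rose by just under 1.5-fold, again with groups apart (log2 0.58, standard error 0.054, edgeR adjusted p = 6.12e-12). RAB29, which acts at the Golgi and on stressed lysosomes and recruits the kinase LRRK2, rose by 0.34 (63.7 ± 2.16 CPM with overexpression against 50.3 ± 3.69 CPM with the empty vector, edgeR adjusted p = 1.61e-07). Of 8 pigment cell markers listed, 3 were measured (PMEL, MLANA and MITF) and none passed, and their summed level was 11.5 to 14.8 CPM with overexpression and 11.6 to 14.6 CPM with the empty vector.

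In regulated exocytosis, the RAB27 pair split. RAB27A and RAB27B dock secretory granules and multivesicular endosomes at the plasma membrane, a step of exosome release. RAB27B (chromosome 18, 54717860 to 54895516, plus strand) had 12.6, 13.8, 15.1, 16.2 and 11.4 CPM in OE1 to OE5, against 6.68, 8.02, 7.37, 5.94 and 5.06 CPM in EV1 to EV5. It rose 2.08-fold with groups apart (log2 1.05, standard error 0.109, edgeR adjusted p = 9.12e-11). RAB27A (chromosome 15, 55202966 to 55319113, minus strand) had 29.3, 31.5, 30, 30.2 and 28.4 CPM in OE1 to OE5, against 31.6, 28.5, 28.7, 30.7 and 28.4 CPM in EV1 to EV5. The groups lay on top of each other (log2 fold change 0.02, 95% interval -0.09 to 0.13, edgeR adjusted p = 0.827), and the upper bound lies below the lower bound of RAB27B, 0.84.

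The RAB3 genes, switches of granule exocytosis best known in neurons and gland cells, were led by RAB3B. RAB3B had 189 ± 5.62 CPM with overexpression and 160 ± 3.60 CPM with the empty vector (log2 fold change 0.24, edgeR adjusted p = 1.01e-07) with groups apart. RAB3D did not pass (0.17, edgeR adjusted p = 0.0717), but it did without EV4 (0.23, edgeR adjusted p = 0.0186) and in each of the 3 limma settings on FPKM (0.13 to 0.17, limma adjusted p = 0.0172 to 0.0245). RAB3A averaged 1.70 CPM with overexpression and 2.10 CPM with the empty vector, and RAB26 averaged 0.718 CPM with overexpression and 1.01 CPM with the empty vector. Their log2 fold changes of -0.30 (RAB3A) and -0.48 (RAB26) did not pass.

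Recycling genes that passed were lower. RAB4A, which returns receptors from early endosomes to the surface by the fast route, had the largest fall of the family. RAB4A (chromosome 1, 229271062 to 229305894, plus strand) stood at 10.3, 10.9, 8.86, 9.99 and 11.7 CPM in OE1 to OE5, against 17.1, 21.8, 19.6, 18.5 and 18.1 CPM in EV1 to EV5. Every overexpression library lay below every empty vector library (1.84-fold lower, log2 -0.88, standard error 0.083, edgeR adjusted p = 1.02e-11). SPHAR overlaps 19.577% of its exons on the same strand, and reads there cannot be given to 1 gene. RAB11A, of the slow recycling route, fell by 0.20 (115 ± 6.78 CPM with overexpression against 133 ± 2.68 CPM with the empty vector, edgeR adjusted p = 2.62e-05) with groups apart. RAB11B (-0.06), RAB15 (-0.05) and RAB35 (-0.02) did not pass.

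**Figure D3:**
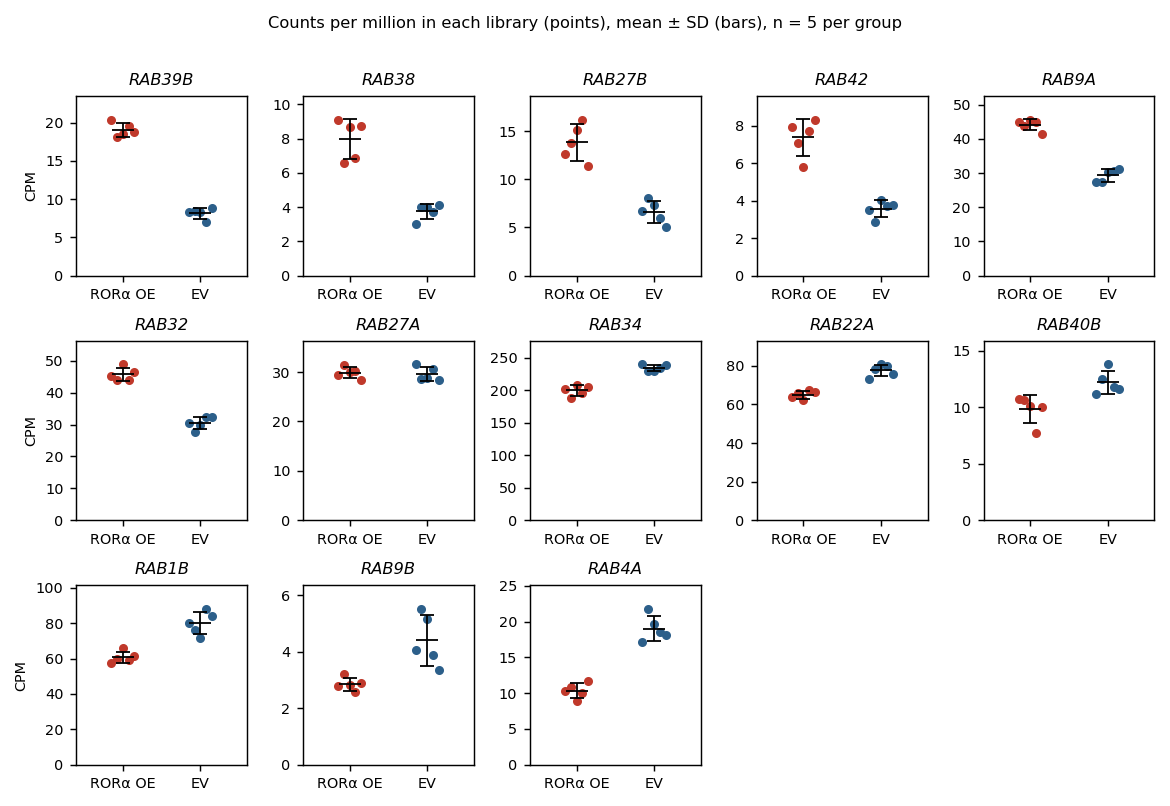
CPM (y axis, from 0) of 13 RAB genes in each library, overexpression left in red and empty vector right in blue, with bars for mean ± SD, n = 5. The 6 genes from RAB39B to RAB32 lie higher and the 6 from RAB34 to RAB4A lower with overexpression, none with overlapping groups, and the groups of RAB27A overlap.

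Early endosome genes moved little. RAB22A, which sorts cargo from early endosomes to recycling tubules, lies on chromosome 20, 58309696 to 58367507, plus strand. It stood at 63.6, 66.0, 62.2, 67.3 and 66.3 CPM in OE1 to OE5, against 73.3, 78.2, 80.9, 79.8 and 76.0 CPM in EV1 to EV5. The groups were apart, with a fall of 0.25 on the log2 scale (standard error 0.042, edgeR adjusted p = 2.27e-06). RAB31, its close relative, did not pass (-0.00, edgeR adjusted p = 0.94). RAB5A, one of the 3 switches of early endosome fusion, had a log2 fold change of 0.14 (47.4 ± 1.88 CPM with overexpression against 43.2 ± 1.33 CPM with the empty vector, edgeR adjusted p = 0.0151) with overlapping groups, while RAB5B (0.01) and RAB5C (-0.07) did not pass. RAB21, which carries integrins, had a log2 fold change of 0.09 (edgeR adjusted p = 0.0741) and passed only without OE3 (0.12, edgeR adjusted p = 0.0182). RAB20 was low, at 2.63 CPM with overexpression and 2.26 CPM with the empty vector, and did not pass.

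Between the ER and the Golgi, RAB1B fell most. RAB1B (chromosome 11, 66268533 to 66277492, plus strand), needed for vesicles to leave the ER and reach the Golgi, stood at 57.4, 59.5, 65.8, 59.0 and 61.5 CPM in OE1 to OE5, against 80.0, 76.0, 71.9, 88.2 and 84.2 CPM in EV1 to EV5. Groups were apart (1.32-fold lower, log2 -0.40, standard error 0.049, edgeR adjusted p = 4.87e-09). Annotated antisense genes cover 42.551% of its exons, and the library protocol in the labels names no step that keeps the strand. Its partner RAB1A, at 164 ± 5.63 CPM with overexpression and 172 ± 4.88 CPM with the empty vector, had a log2 fold change of -0.07 (edgeR adjusted p = 0.0717). RAB1A passed without EV4 (-0.08, edgeR adjusted p = 0.041) and without OE2 (-0.09, edgeR adjusted p = 0.0236). Exons of CEP68 lie antisense over 22.856% of RAB1A.

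Of the other Golgi genes, RAB6A and RAB6B, which run retrograde carriers from the Golgi, fell by 0.13 and 0.19, and RAB2A fell by 0.12, all with overlapping groups. RAB6A shares 20.083% of its 50-base words with other transcripts, mainly the retrocopies RAB6C and RAB6D, so its value is uncertain. RAB2B rose by 0.15 (edgeR adjusted p = 0.0266) but did not pass without EV1 (0.13), EV4 (0.12) or OE5 (0.10), with edgeR adjusted p of 0.068, 0.0726 and 0.141. RAB18, of the ER and lipid droplets, had -0.08 and did not pass (edgeR adjusted p = 0.0958), except without EV4 (-0.11, edgeR adjusted p = 0.0296), OE2 (-0.10, edgeR adjusted p = 0.0481) or OE4 (-0.11, edgeR adjusted p = 0.0361). RAB30, RAB33B, RAB36 and RAB43 did not pass, and 79.263% of the exons of RAB43 are shared with a readthrough gene.

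On the path from Golgi to surface, RAB13, of tight junction traffic, was the only 1 of 5 genes to pass. It rose by 0.58 on the log2 scale at a low level (4.46 ± 0.953 CPM with overexpression against 2.99 ± 0.473 CPM with the empty vector, edgeR adjusted p = 0.00249), the groups overlapped through OE1, and 24.791% of its exons overlap another gene on the same strand. RAB8A (0.07), RAB8B (0.00), RAB14 (-0.03) and RAB10 (-0.05), which carry membrane proteins outward, had 95% intervals within -0.11 and 0.20.

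The last set holds ciliary and less placed RAB genes. RAB42, a little studied member (chromosome 1, 28592200 to 28595443, plus strand), stood at 7.94, 7.06, 5.80, 7.71 and 8.32 CPM in OE1 to OE5, against 3.48, 2.84, 4.03, 3.72 and 3.78 CPM in EV1 to EV5. It rose 2.07-fold with groups apart (log2 1.05, standard error 0.13, edgeR adjusted p = 7.21e-09), and 7.953% of its 50-base words occur elsewhere, mainly in its pseudogene. RAB34, needed to build some cilia and abundant here, lies on chromosome 17, 28714281 to 28718429, minus strand. RAB34 had 202, 188, 208, 195 and 205 CPM in OE1 to OE5, against 240, 230, 230, 234 and 238 CPM in EV1 to EV5, a fall of 0.23 on the log2 scale with groups apart (standard error 0.033, edgeR adjusted p = 1.23e-07).

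RAB40B, of the RAB40 group that carries a SOCS box and joins ubiquitin ligases, had 10.7, 10.6, 10.1, 7.71 and 10.0 CPM in OE1 to OE5, against 11.2, 12.5, 13.8, 11.8 and 11.6 CPM in EV1 to EV5. Its groups (chromosome 17, 82654973 to 82698728, minus strand) were apart by a small margin (log2 -0.31, standard error 0.093, edgeR adjusted p = 0.00482), and RAB40C did not pass (-0.05). RAB23, a brake on Hedgehog signalling, rose by 0.25 (47.1 ± 0.674 CPM with overexpression against 39.6 ± 2.08 CPM with the empty vector, edgeR adjusted p = 4.19e-05). Exons of BAG2 lie antisense over 57.694% of RAB23; BAG2, named only for this overlap, had a log2 fold change of -0.08 and did not pass. RAB28, a ciliary RAB, fell by 0.15 (edgeR adjusted p = 0.0206) and did not pass without EV1 (-0.13), OE1 (-0.14) or OE3 (-0.13), with edgeR adjusted p of 0.0596, 0.0522 and 0.0528.

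Because relatives with similar roles can stand in for each other, the ratio of 2 relatives was formed within each library for 18 pairs. In 8 of the 18 pairs the ratio differed between the groups at a Benjamini-Hochberg adjusted p of 0.05 over the pairs (exact two-sided permutation test, smallest possible raw p 0.00794). The log2 ratio of RAB9A over RAB9B averaged 3.95 ± 0.146 with overexpression and 2.76 ± 0.348 with the empty vector (SD, n = 5 each, difference 1.19, exact permutation p = 0.00794, adjusted p = 0.0204). For RAB27A over RAB27B it averaged 1.12 ± 0.173 with overexpression and 2.18 ± 0.277 with the empty vector (difference -1.05, exact permutation p = 0.00794, adjusted p = 0.0204). Per kilobase RAB27A exceeded RAB27B 2.47 to 3.31 times in overexpression libraries and 4.70 to 7.43 times in empty vector libraries, so RAB27A remained the larger of the pair.

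The log2 ratio of RAB32 over RAB38 fell by 0.50 (exact permutation p = 0.00794, adjusted p = 0.0204), and that of RAB1A over RAB1B was higher by 0.33 with overlapping groups (exact permutation p = 0.0159, adjusted p = 0.0357). The other ratios that passed were RAB2A over RAB2B (-0.27), RAB22A over RAB31 (-0.25), RAB5A over RAB5C (0.20) and RAB3A over RAB3B (-0.55, with RAB3A near 2 CPM). The ratios of RAB6A over RAB6B (0.06), RAB8A over RAB8B (0.07) and RAB3B over RAB3D (0.06) were not shown to differ (exact permutation p = 0.437, 0.389 and 0.563). RAB11A, RAB5A and RAB40B passed as single genes, but some of their ratios to relatives that did not pass were not shown to differ. Among these were RAB11A over RAB11B (-0.15), RAB5A over RAB5B (0.12) and RAB40B over RAB40C (-0.26), with adjusted permutation p = 0.1, 0.0635 and 0.187. RAB5A over RAB5C did differ, as given above, although RAB5C did not pass. The remaining ratios did not pass either. The pairs were named with the members' values known.

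**Figure D4:**
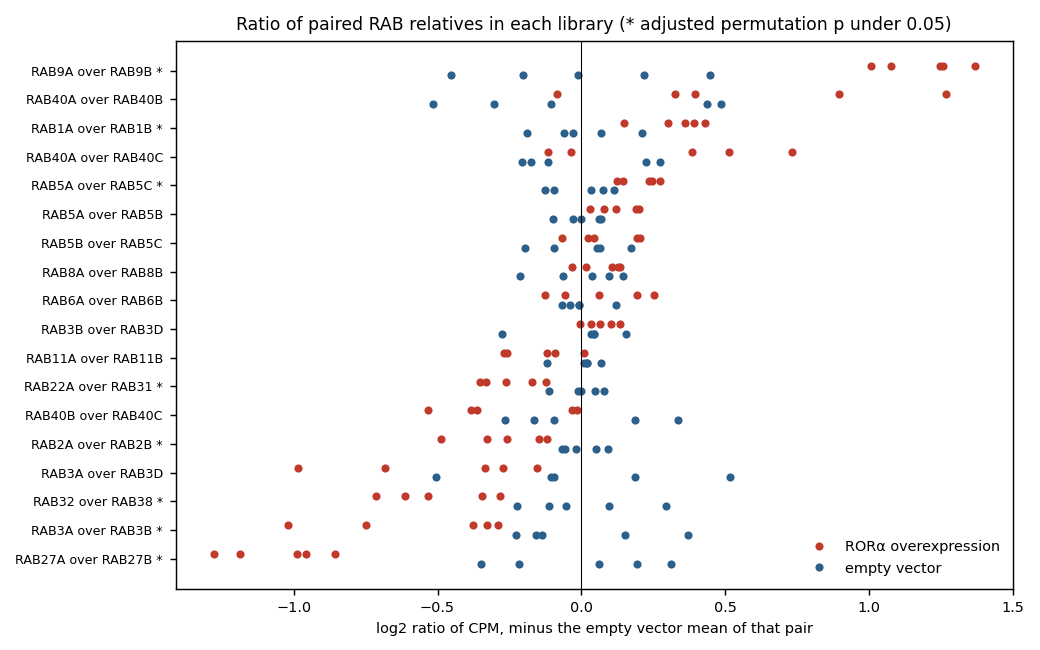
Log2 ratio of the 2 relatives' CPM in each library (x axis), shifted so that the empty vector mean of each pair is 0, for 18 pairs (y axis), with overexpression in red above empty vector in blue. Stars mark the 8 pairs whose ratio differed, with RAB9A over RAB9B at the top (1.19) and RAB27A over RAB27B at the bottom (-1.05).

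The machinery that serves the RABs was read from 6 lists with 200 of 214 genes tested, of which 66 rose and 52 fell (59.0% called, against 56.1% of all genes), with a median log2 fold change of 0.01. Over all genes 28.6% were higher and 27.5% lower, and the counts of each list below are to be read against these shares. Of 8 genes for extraction, escort and prenylation, 2 rose and 2 fell. GDI2, an extraction protein, did not pass (384 CPM with overexpression, 390 CPM with the empty vector). RABGGTB and RABGGTA, the enzyme's subunits, rose by 0.21 and 0.15, and RABIF and the escort gene CHM fell by 0.19 and 0.16. Some calls in this list rested on single libraries: RABGGTA was lost without EV3 (0.12), RABIF without EV5 (-0.16), and CHM without EV1 (-0.14), OE3 (-0.12) or OE5 (-0.13).

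Among 48 exchange factors, 19 rose and 7 fell (54.2% called, median 0.08). DENND3, the exchange factor of RAB12, had 94.6, 89.9, 94.7, 94.1 and 94.7 CPM in OE1 to OE5, against 42.0, 44.3, 48.0, 44.5 and 45.1 CPM in EV1 to EV5, the groups far apart (log2 fold change 1.06, edgeR adjusted p = 4.55e-23). C9orf72, whose complex with SMCR8 acts in autophagy and has been reported to exchange nucleotide on RAB39B, had 23.9, 22.2, 21.6, 25.2 and 20.9 CPM in OE1 to OE5, against 11.2, 12, 10.9, 11.9 and 13.0 CPM in EV1 to EV5 (log2 0.95, edgeR adjusted p = 6.07e-14). SMCR8, named after its values were seen like the other partner genes below, rose by 0.32. DENND2C rose by 0.49, and DENND2A, of a group that acts on RAB9, fell by 1.91 on the log2 scale (1.14 ± 0.376 CPM with overexpression against 4.28 ± 0.478 CPM with the empty vector, edgeR adjusted p = 9.01e-11).

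For other RABs that moved, partner genes gave mixed values. Of BLOC-3, the exchange factor of RAB32 and RAB38, HPS1 rose by 0.29 and HPS4 did not pass (0.08). Of the RAB7A exchange factor, MON1A and MON1B rose by 0.30 and 0.23, while CCZ1 did not pass (-0.02). MADD, which serves RAB3 and RAB27, rose by 0.13. Of 32 GAPs, 5 rose and 11 fell (50% called, median -0.03): TBC1D22B rose by 0.61, and TBC1D2B, TBC1D14 and RABGAP1 fell by 0.48, 0.41 and 0.40.

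Of 54 effectors, 20 rose and 18 fell (70.4% called, median 0.02). RILP, a dynein adaptor of RAB7A, rose with overlapping groups (0.86, 1.95 ± 0.777 CPM with overexpression against 1.06 ± 0.469 CPM with the empty vector, edgeR adjusted p = 0.0124), and it did not pass without EV2 (0.60) or OE5 (0.70). Other RAB7A effectors were FYCO1, which rose by 0.55, VPS39 by 0.27, PLEKHM1 by 0.25 and OSBPL1A by 0.18, while VPS41 did not pass (0.01). RAB27 effectors did not share a direction: SYTL5 fell by 2.61 (20 counts in all overexpression libraries and 123 in all empty vector libraries) and SYTL2 by 0.43, MLPH fell by 0.13, SYTL3 rose by 0.45 and EXPH5 by 0.61, and SYTL1, SYTL4 and UNC13D did not pass. RIMS2, a RAB3 effector, had 96 counts in all overexpression libraries and 24 in all empty vector libraries, of which EV1 held 13 (log2 1.93, and 2.73 without EV1).

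Effectors of recycling and of the Golgi also differed by gene. Among the RAB11FIP genes, which encode RAB11 partners, RAB11FIP1, RAB11FIP2, RAB11FIP3 and RAB11FIP5 rose by 0.40, 0.12, 0.18 and 0.31, and RAB11FIP4 fell by 0.38. The Golgi tethers GOLGA2, which binds RAB1, and USO1 fell by 0.35 and 0.16, and the RAB6 adaptor BICD2 fell by 0.19. On early endosomes RABEP1 fell by 0.27 and EEA1 by 0.15, and RBSN rose by 0.28. Further effectors on the list passed in either direction, such as EXOC6 (0.51), OPTN (0.46), MICALL2 (-0.42) and WDR44 (-0.17). Others did not pass, among them BICD1 (-0.12), ERC1 (0.02) and GCC2 (-0.00). RABEP2 (0.09), APPL1 (0.04), APPL2 (-0.06), ANKFY1 (-0.08) and RUFY1 (0.01) did not pass either.

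Of 36 SNAREs, the proteins that fuse the vesicle a RAB has brought, 13 rose and 10 fell (63.9% called, median 0.07). STX11, a syntaxin of immune cell granules, rose by 1.11 (11.4 ± 1.65 CPM with overexpression against 5.26 ± 0.559 CPM with the empty vector, edgeR adjusted p = 3.13e-11), BNIP1 by 0.39 and SEC22B by 0.37. Immune markers measured, CD14 and CSF1R of 10 listed, summed to 2.16 to 3.12 CPM with overexpression and 4.09 to 5.70 CPM with the empty vector, and their part in the STX11 result was not tested. Of 22 tether subunits, 7 rose and 4 fell (50% called, median -0.02), with 4 rises without OE5. VPS16 and VPS33A, of the late endosome tether HOPS, rose by 0.30 and 0.29, COG6 fell by 0.24, and COG8 (0.29) lost its call without EV1 (0.29), EV2 (0.24), EV4 (0.27), OE1 (0.27) or OE5 (0.24).

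**Figure D5:**
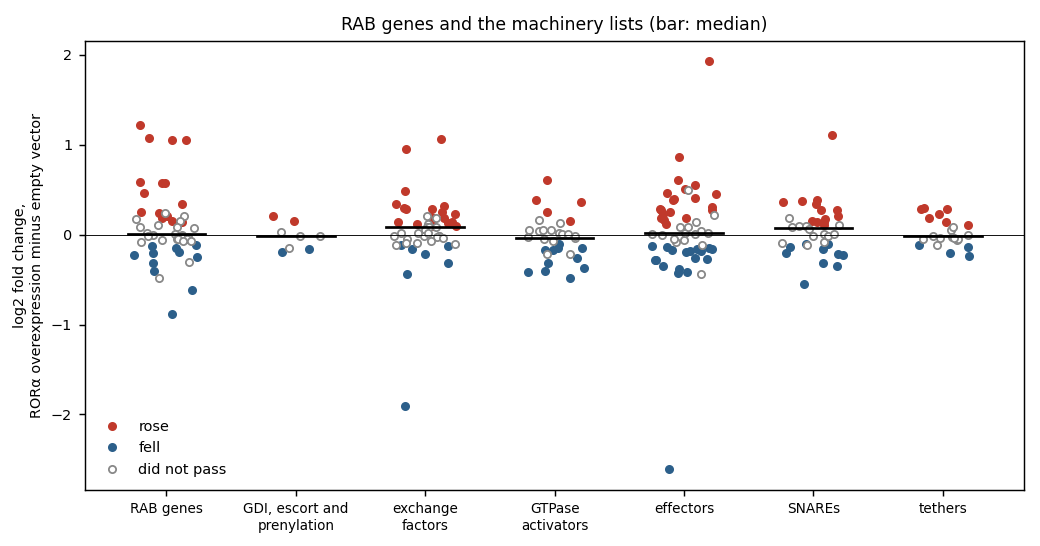
Log2 fold change (y axis, RORα overexpression minus empty vector) of each RAB gene and of each gene in the 6 machinery lists (x axis); red points rose, blue points fell, open points did not pass, and bars are medians. All 7 medians lie between -0.03 and 0.08, and the widest values are SYTL5 (-2.61), DENND2A (-1.91) and RIMS2 (1.93).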

How the data were processed

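Messenger RNA of 10 libraries was compared in 1 contrast, 5 against 5. The submitters' processing notes name HISAT2 2.2.1, HTSeq and GRCh38; no annotation release is named there. The authors deposited raw read counts and FPKM per gene for 12540 genes, per the file headers; how genes were picked for the table is not stated. FPKM was used only in alternatives. The filter filterByExpr (minimum count 10, minimum total 15) left 12520 genes, which were scaled with TMM (0.991 to 1.006) and tested with edgeR 4.0.16 (quasi-likelihood, two-sided) in R 4.3.3. The p-values were Benjamini-Hochberg adjusted over all genes tested. The standard error is the log2 fold change divided by the root of F, and intervals use 1.96 of it. Exon length per kilobase, overlaps and shared 50-base words came from GENCODE 29. Overlaps are not given for every gene above. On the same strand, another gene covers 28.758% of the exons of RAB5C. Antisense genes cover 37.758% of the exons of RAB8A and 23.772% of the exons of RAB3D. Simulated counts with known changes were used to test the edgeR step. Over pairs within groups, chi-square per degree of freedom was 2.28 to 5.74, so no pair agreed within counting noise. The members, routes, pairs and lists were chosen with earlier results of these data known. Every library is given for RAB27A, RAB27B and the 6 largest rises and 6 largest falls that passed, and each machinery list names its 4 largest changes that passed, except where a gene is not reported here. A count of 0 would allow 0.137 to 0.172 CPM (3 counts), counting error only. Alternatives were DESeq2 1.42.0, other scaling or none, no filter, limma 3.58.1 on log2(FPKM + 1) or log2(FPKM + 0.1), the replicate number as a block, and leaving out each library.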

Additional observations from a re-analysis of the deposited data

Results flagged for a closer look

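In 75 genes and 150 groups of 5 libraries, 10 single libraries stood apart from the other 4 of their group, with a gap of over 0.71 of the group's range; chance alone flags about 1 group in 20. Among RAB genes of the overexpression group, these were RAB43 in OE2 (6.40 CPM, others 5.06 to 5.42) and RAB40B in OE4 (7.71 CPM, others 10.0 to 10.7). In the empty vector group they were RAB30 in EV1 (15.5 CPM, others 12.3 to 13.1), RAB10 in EV1 (189 CPM, others 176 to 178), RAB14 in EV4 (136 CPM, others 141 to 143) and RAB11B in EV4 (158 CPM, others 136 to 142). Among machinery genes they were DENND3 in OE2 (89.9 CPM, others 94.1 to 94.7), SEC22B in OE1 (167 CPM, others 150.0 to 154), RIMS2 in EV1 (0.706 CPM, others 0.0511 to 0.199) and RILP in EV2 (0.249 CPM, others 1.18 to 1.47). The cause of each was not tested.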

How the results depend on the processing

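Of 19 alternative settings, the one with FPKM in place of CPM was run for the ratios only. Over the rest, 878 values of RAB genes were recomputed: 861 kept their call, 6 lost it, 11 gained it and none reversed. Of 26 called RAB genes, 24 kept their call in every setting run. The exceptions, RAB2B and RAB28, lost theirs only without single libraries, DESeq2 added RAB1A (-0.08, DESeq2 adjusted p = 0.0386), and limma on FPKM added RAB3D in all 3 settings. Leaving out a library gave 14 to 16 RAB genes higher and 10 to 13 lower, and over all genes 3393 to 3571 and 3270 to 3448. For the lists, it gave 17 to 21 and 6 to 8 exchange factors, 5 and 10 to 12 GAPs, 18 to 20 and 15 to 18 effectors, 13 to 14 and 8 to 10 SNAREs, 4 to 7 and 3 to 4 tethers, and 1 to 2 either way for escort and prenylation genes. With limma on genes of at least 1 FPKM, at a pseudocount of 1 or 0.1, exchange factors counted 12 higher and 4 lower of 29 kept, lower SNAREs 5 of 30 and lower escort genes 1; without that filter lower escort genes were 1 too. That filter left fewer genes to test. RIMS2 and CHM lost their calls on FPKM (0.01, and -0.13 to -0.16). On log2(FPKM + 1), which understates changes of low genes, log2 fold changes without the filter were -0.15 for SYTL5 (edgeR -2.61), -0.19 for DENND2A (-1.91), 0.41 for STX11 (1.11), 0.22 for RILP (0.86) and 0.73 for RORA (1.46), all still past the threshold.

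The labels do not say that replicate numbers pair the libraries, and same-number correlations of deviations ran from -0.22 to 0.19. With the replicate block, 15 RAB genes were higher and 11 lower, and 3544 and 3406 of all genes. Paired by number, 0 of 18 ratios passed, since 5 pairs cannot go below an exact p of 0.0625; leaving out a library gave 7 to 9 ratios, and FPKM in place of CPM gave 8.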
